A study of Homo sapiens with 9 samples.

Results

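The loci described here are the 1231 genomic loci, of 2363 that the authors assembled from their own reads, whose span from first to last base is under 10 kb. They were chosen by the coordinates in the deposited annotation alone, without any expression value, and all 1231 matched a row of the deposited expression table by their MSTRG identifier, the running number that StringTie gives to a locus it assembles. The table holds 22295 entries, of which 19932 carry a gene symbol, 1231 are these short loci and 1132 are assembled loci of 10 kb or more. Values are FPKM, the fragments of a locus scaled to its transcript length and to the mapped fragments of the library.

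The study asked how the transcriptome of U251 cells, an established human glioblastoma line, responds to knockdown of PTBP1. The control group, sh-Luci-3d, received a lentivirus with a short hairpin RNA against luciferase, a gene that the cells lack, and was collected 3 days after infection. The groups sh-Ptbp1-3d and sh-Ptbp1-7d received a lentivirus with a hairpin against PTBP1 and were collected 3 and 7 days after infection. Each group had 3 libraries of total RNA, and all cells are of 1 line and were moved to a neuronal induction medium with forskolin and dorsomorphin at 2 days, as the study's methods describe. No sh-Luci library of day 7 was analysed here, so in both comparisons with sh-Ptbp1-7d the additional days in this medium and the knockdown cannot be told apart. Nothing in the labels says whether libraries of a group came from separate cultures, and p-values then measure only the spread between these libraries, which may be technical.

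PTBP1 binds pyrimidine-rich RNA and represses the use of many exons, and its decline accompanies neuronal differentiation. Transcript assembly joins overlapping spliced reads into transcript models, so it can recover long noncoding RNAs, expressed pseudogenes, extensions of known genes and transcripts from the opposite strand of a gene. Long noncoding RNAs and pseudogene transcripts are often spliced from few exons, are often made at low level, and some start beside a coding gene and run away from it.

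PTBP1 itself was at 111, 112 and 124 FPKM in sh-Luci-3d, 66.2, 64.4 and 61.0 in sh-Ptbp1-3d, and 49.7, 50.7 and 51.0 in sh-Ptbp1-7d. The day 3 groups differed by -0.85 on the log2 scale (limma adjusted p = 0.00314), which is short of a 2-fold change. Of the 10 astroglial and glioma markers examined, 8 had a mean of at least 1 FPKM, while GFAP and S100B averaged 0.463 and 0.344 FPKM. Their summed FPKM, most of it from VIM, went from 4470 to 4890 in the day 3 libraries and from 1400 to 1520 in sh-Ptbp1-7d. The 6 neuronal markers summed to between 265 and 356 FPKM at day 3 and between 158 and 165 at day 7, with RBFOX3 under 0.1 FPKM. Averaged over the 9 libraries, most of this sum came from TUBB3, so its fall does not describe the other neuronal markers. Among 5 blood and immune markers CD68 alone reached 1 FPKM, CD3E was listed at 0 in all 9 libraries, and the sum was between 10.2 and 11.4 FPKM at day 3 and between 16.1 and 19 at day 7. The sum of 3 epithelial markers, almost all of it KRT18, ranged from 17.1 to 28.6 FPKM. The part of these shifts in the results for the short loci was not tested.

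The sequences at which several of these loci begin are shown first, because their starts coincide with annotated promoters. RefSeq (GRCh38.p14) has a start site on the same strand within 500 bases of the 5′ end of 201 of the 1231 loci. The windows below run from 250 bases before to 50 bases after such a start and are written 5′ to 3′ in lower case, with capitals at every match, on either strand, to the motifs searched, which in these windows are the GC box GGGCGG and the interferon-gamma activated element TTCNNNGAA (GAS). HCP5 lies at chr6:31462930-31463229 on the plus strand, DANCR at chr4:52712144-52712443 on the plus strand, LINC01615 at chr6:169162940-169163239 on the minus strand and LINC02361 at chr12:132189646-132189945 on the minus strand. They are the starts of loci that rose most, fell at day 7, or came nearest to a change at day 3.
HCP5: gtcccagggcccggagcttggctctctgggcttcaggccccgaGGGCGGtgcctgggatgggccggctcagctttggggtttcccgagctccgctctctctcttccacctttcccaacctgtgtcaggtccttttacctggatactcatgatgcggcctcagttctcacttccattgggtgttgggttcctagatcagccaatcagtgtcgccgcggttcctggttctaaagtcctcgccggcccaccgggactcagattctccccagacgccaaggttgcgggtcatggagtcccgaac
DANCR: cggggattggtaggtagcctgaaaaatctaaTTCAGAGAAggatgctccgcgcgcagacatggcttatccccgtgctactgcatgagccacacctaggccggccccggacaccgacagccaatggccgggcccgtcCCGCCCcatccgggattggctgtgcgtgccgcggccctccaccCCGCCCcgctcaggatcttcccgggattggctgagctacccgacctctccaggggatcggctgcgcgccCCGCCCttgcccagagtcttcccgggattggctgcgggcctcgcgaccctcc
LINC01615: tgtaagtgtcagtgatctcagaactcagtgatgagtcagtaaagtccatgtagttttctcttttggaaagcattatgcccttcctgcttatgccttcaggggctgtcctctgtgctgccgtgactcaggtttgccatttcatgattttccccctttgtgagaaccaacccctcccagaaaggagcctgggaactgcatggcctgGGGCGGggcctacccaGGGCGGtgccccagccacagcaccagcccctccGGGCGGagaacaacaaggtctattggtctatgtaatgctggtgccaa
LINC02361: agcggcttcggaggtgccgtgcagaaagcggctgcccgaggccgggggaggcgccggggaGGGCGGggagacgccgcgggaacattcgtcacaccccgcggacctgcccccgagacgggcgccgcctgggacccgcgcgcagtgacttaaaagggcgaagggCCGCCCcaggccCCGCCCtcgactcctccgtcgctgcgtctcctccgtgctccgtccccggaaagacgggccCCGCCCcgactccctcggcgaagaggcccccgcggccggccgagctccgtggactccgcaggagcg
The fifth window belongs to CYREN, a regulator of DNA end joining, on the minus strand at chr7:135170658-135170957. The locus MSTRG.25705 begins inside it and runs the other way.
CYREN: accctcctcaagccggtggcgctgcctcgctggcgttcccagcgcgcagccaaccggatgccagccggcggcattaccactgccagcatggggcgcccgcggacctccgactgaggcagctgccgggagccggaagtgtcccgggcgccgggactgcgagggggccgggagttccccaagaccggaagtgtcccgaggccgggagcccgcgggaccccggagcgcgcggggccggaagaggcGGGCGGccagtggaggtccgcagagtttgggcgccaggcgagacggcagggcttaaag

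The window of HCP5 held 1 GC box, at 207 bases before the RefSeq start, and that of CYREN held 1, while those of LINC01615 and DANCR held 3 each and that of LINC02361 held 4. DANCR had the only GAS element among the 5. Over all 201 windows of short loci, 65.7% held a GC box, against 45.0% of the 35116 RefSeq windows of the same length. The TATA box TATAAA was found in 5.47% against 11.5%, the cyclic AMP element TGACGTCA in 2.99% against 1.85%, GAS in 7.46% against 7.66% and the interferon-stimulated response element (ISRE; GAAA, any 2 bases, GAAA) in 1.49% against 3.57%. Matches of different motifs may overlap. None of the 9 windows whose locus was called higher at day 7 held a GAS or ISRE match, which says only that these letters are not in the windows, and 2 of the 13 windows of loci called lower held GAS (15.4%). Windows of genes that start on the opposite strand within 500 bases of a short locus, 179 in number, held a GC box in 78.8%.

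Every short locus had at least 2 exons. Their median span was 3110 bases, from 335 to 9995, and their median exonic length was 904 bases (interquartile range 525 to 1784). Of the 1231 loci, 788 had 2 exons in the transcript with the most, 265 had 3, 148 had 4 or 5 and 30 had 6 or more, up to 14. A single transcript model was given for 938 loci (76.2%), against 38.2% of the loci of 10 kb or more, and strands were balanced, with 607 loci on the plus and 624 on the minus strand. The 3 loci just inside the limit, MSTRG.457, MSTRG.16994 and MSTRG.10815, spanned 9995, 9986 and 9966 bases and averaged between 0.217 and 0.797 FPKM per group. The 3 just outside, MSTRG.13944, MSTRG.9924 and MSTRG.9208, spanned 10027, 10034 and 10036 bases and averaged between 0 and 0.45 FPKM per group.

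Most introns of these loci were absent from GENCODE release 29, an annotation of the same genome build. Of 2542 distinct introns 823 (32.4%) had both ends at an annotated intron, against 39.4% of 9487 in the larger loci. At 401 loci at least 1 intron was annotated, at 186 every intron was, and at 830 none was. For introns that lie wholly inside an annotated exon of the same strand the first and last bases could be read from the annotated transcripts. Of 202 such introns at 124 loci, 185 (91.6%) began with GT and ended with AG, the bases of the common spliceosomal intron, against 93.3% of 360 in the larger loci. The alignment of spliced reads may itself prefer these bases, so the share does not test whether the introns are real. A polyadenylation hexamer, AATAAA or ATTAAA, lay in the last 50 bases of 11.0% of the 300 short loci whose ends could be read in that way, in 15.2% of 231 larger loci and in 33.3% of annotated transcripts with 2 or more exons. The assembled ends that could be read lie inside annotated exons, while the annotated share was taken at transcript ends. These shares therefore come from ends chosen in different ways.

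Splice junctions of HCP5 (chr6:31463279-31463371) and DANCR (chr4:52712527-52712824) are given as examples, because these loci carry large changes. At each junction the 25 bases on either side lie inside annotated exons of the same strand. The only intron of the HCP5 locus is annotated. Each line joins the last 25 bases of an exon to the first 25 of the next, with 5 bases on each side of the junction in capitals.
HCP5: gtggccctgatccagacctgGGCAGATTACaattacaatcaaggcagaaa
DANCR: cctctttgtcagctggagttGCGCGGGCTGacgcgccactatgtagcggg

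Slightly more than 50% of the loci sat on a known gene of their strand. By position on GENCODE 630 loci (51.2%) shared at least 1 exonic base with an annotated exon of the same strand. Another 56 (4.55%) overlapped a gene on their strand without sharing an exonic base. A further 138 (11.2%) overlapped a gene on the opposite strand only, and 407 (33.1%) were intergenic. Among the 630, the exon belonged to a long noncoding RNA at 356 loci, to a pseudogene at 227, to a protein-coding gene at 40 and to another class at 7. The larger loci shared an exon in 73.2% and were intergenic in 12.7%. The intergenic short loci lay close to genes, with a median of 3054 bases to the nearest one, 299 of 407 within 10 kb and 3 beyond 100 kb. A RefSeq gene span of either strand overlapped 189 of them (46.4%) by at least 1 base. Over all classes, 280 loci (22.7%) had a gene of the opposite strand starting within 1 kb of their 5′ end, on either side of it. Where the gene starts upstream of that end, this is the arrangement of a divergent promoter. In other pairs the gene starts inside the locus, as GOT1 does at MSTRG.3755, and both overlap. Whether the libraries kept the strand is not given in the sources used here, and 197 loci (16%) overlapped another assembled locus on the opposite strand, so reads of such pairs cannot be told apart.

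**Figure D1:**
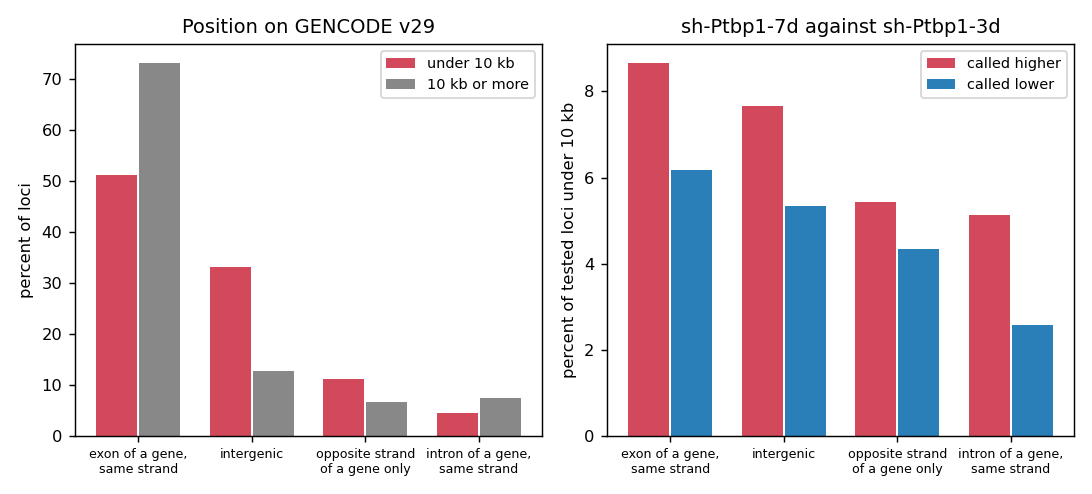
Left, percent of loci (vertical axis) in each position class on GENCODE release 29 for loci under 10 kb and of 10 kb or more. Right, percent of tested loci under 10 kb called higher or lower in sh-Ptbp1-7d than in sh-Ptbp1-3d. The class labelled as intron holds loci that overlap a gene of their strand without sharing an exonic base. Loci sharing an exon on their strand make up 51.2% of the short and 73.2% of the larger loci, and each class on the right holds calls in both directions.

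By chromosome the short loci did not follow the number of gene symbols. Chromosome 1 had the most, 128, but chromosome 21 had the most per 100 symbols of the table, 16.7 with 38 loci, followed by chromosome 15 with 11.5 (67 loci), chromosome 7 with 9.93 (88 loci) and chromosome 16 with 9.55 (79 loci). Chromosome 14 had the fewest per 100 symbols, 3.65 with 22 loci. These counts are descriptions, since loci in segmental duplications and ribosomal DNA share sequence with other copies.

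The short loci were expressed at low level. Their mean over the 9 libraries had a median of 0.265 FPKM, against 0.642 for the larger loci and 2.52 for gene symbols. A mean of 1 FPKM was reached by 195 loci and a mean of 10 by 11. In single libraries between 162 and 214 loci reached 1 FPKM and between 248 and 291 were listed at 0, and 632 loci were above 0 in all 9. Together they took 0.263% to 0.293% of a library's summed FPKM, with no separation of the groups. FPKM values keep no read number, so the depth behind a value is unknown and no counting interval can be given. For the 195 loci with a mean of at least 1 FPKM the median coefficient of variation within a group was 14.7% to 18.0%, against 6.47% to 12.4% for gene symbols above the same level.

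The 6 loci of highest level were of several kinds. MSTRG.27339, on the retrocopy ANXA2P2 of the annexin A2 gene (chr9:33624221-33625354), was at 125, 119 and 108 FPKM in sh-Luci-3d, 107, 104 and 97.5 in sh-Ptbp1-3d, and 28.4, 30.1 and 36.4 in sh-Ptbp1-7d. The day 7 libraries lay below all others, and the log2 difference from sh-Ptbp1-3d was -1.71 (standard error 0.10, limma adjusted p = 3.3e-07). ANXA2 itself, which binds calcium and phospholipids, was 1130, 1140 and 1130 FPKM in sh-Ptbp1-3d and 312, 310 and 335 in sh-Ptbp1-7d, a log2 difference of -1.83. Because the copy and its parent are nearly identical, reads may have been shared between them, and the value of the copy is uncertain.

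GENCODE gives ANXA2P2 as a single exon, whereas the assembled locus holds an intron of 95 bases inside that exon, at chr9:33624422-33624516 on the plus strand. Reads of ANXA2 may have been placed on the copy, and whether the copy itself is spliced there was not tested. The stretch is printed with its terminal GT and AG in capitals.
ANXA2P2 intron: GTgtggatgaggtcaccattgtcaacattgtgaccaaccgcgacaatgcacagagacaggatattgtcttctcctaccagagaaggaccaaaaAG

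MSTRG.21151, an intergenic locus downstream of TENM3, was also among them and is described with the falls at day 7. MSTRG.23279 matches C6orf48, named SNHG32 in RefSeq, a host gene of small nucleolar RNAs in the major histocompatibility complex, and all 4 of its introns were annotated. It was at 51.1, 53.3 and 70.2 FPKM in sh-Luci-3d, 63.7, 65.4 and 61.6 in sh-Ptbp1-3d, and 48.7, 45.5 and 45.1 in sh-Ptbp1-7d. It differed by -0.45 between the sh-Ptbp1 groups, under the 2-fold limit (limma adjusted p = 0.00598).

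MSTRG.18435 covers FGD5-AS1, a long noncoding RNA whose locus begins 56 bases from the gene NR2C2 on the other strand. It was at 22, 22.6 and 16.9 FPKM in sh-Luci-3d, 23.2, 22.9 and 23.5 in sh-Ptbp1-3d, and 31.6, 31.0 and 31.2 in sh-Ptbp1-7d, a log2 difference of 0.43 at day 7 from sh-Ptbp1-3d (limma adjusted p = 0.00594), again under the 2-fold limit. NR2C2, a nuclear receptor, differed by 0.07 (limma adjusted p = 0.665). MSTRG.14203 on C19orf48 was at 17.5, 21.2 and 25 FPKM in sh-Luci-3d, 26.5, 22.6 and 22.2 in sh-Ptbp1-3d, and 27, 25.7 and 26.2 in sh-Ptbp1-7d. Its sh-Ptbp1 groups overlapped.

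MSTRG.17248 lies opposite MIR3648-1 in a ribosomal DNA array of chromosome 21, whose copies share reads. It was at 45.6, 31.1 and 71.5 FPKM in sh-Luci-3d, 62.5, 58.0 and 43.7 in sh-Ptbp1-3d, and 20.5, 0 and 15.2 in sh-Ptbp1-7d, where replicate 2 alone is listed at 0. With that library the log2 difference from sh-Ptbp1-3d was -4.10 (limma adjusted p = 0.0476), which did not pass at 0.01, and without it -1.61 (limma adjusted p = 0.00222, the lowest over the alternatives, whose highest was 0.112).

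At day 3, where sh-Ptbp1-3d was set against sh-Luci-3d to see the early effect of the knockdown, none of the 950 short loci that could be tested passed. Tested means a mean of at least 0.1 FPKM over the 9 libraries, which 281 of the 1231 did not reach, and a call in this comparison needed a change of more than 2-fold with an adjusted p (Benjamini-Hochberg over all 15551 tested entries) below 0.05 from limma on log2(FPKM + 0.1). Over all entries tested, 0.0129% were called. At an unadjusted p below 0.05 there were 79 short loci (8.32%), against 7.24% of all entries tested. The groups did not overlap at 127 loci (13.4%), against 10.8%. The median log2 difference was 0.045 for short loci and 0.01 for all entries. Differences here and below are on the log2(FPKM + 0.1) scale, which understates the change of low loci.

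The locus nearest to a call at day 3 was MSTRG.6928, which carries the long noncoding RNA LINC02361 (chr12:132186740-132189681). It was at 0.256, 0.358 and 0.355 FPKM in sh-Luci-3d, 1.11, 0.984 and 0.78 in sh-Ptbp1-3d, and 1.93, 1.48 and 1.53 in sh-Ptbp1-7d. The 3 groups did not overlap. The log2 difference of sh-Ptbp1-3d from sh-Luci-3d was 1.32 (standard error 0.206, limma adjusted p = 0.0964, with 0.0124 to 0.562 over the alternatives), and that of sh-Ptbp1-7d from sh-Luci-3d was 2.05 (limma adjusted p = 1.51e-05), which passed.

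The next 4 by adjusted p lay between 0.271 and 0.446. MSTRG.8306, which carries LINC00239, was listed at 0 in sh-Luci-3d replicates 2 and 3 and at 0.0218 FPKM in replicate 1, and was 0.369, 0.222 and 0.406 in sh-Ptbp1-3d. MSTRG.11800 on AC025048.4 was at 0, 0.172 and 0.182 FPKM in sh-Luci-3d and 0.559, 0.508 and 0.476 in sh-Ptbp1-3d, and the intergenic MSTRG.23429 was at most 0.0902 FPKM in sh-Luci-3d and 0.174 to 0.293 in sh-Ptbp1-3d. MSTRG.9376 on the pseudogene PRKXP1 went the other way, from 0.967, 0.704 and 0.787 to 0.404, 0.158 and 0.419 FPKM, and was 1.01, 0.816 and 0.914 at day 7. In each of these 4 the day 3 groups did not overlap. Without sh-Luci-3d replicate 3 the count of calls was 9, with 7 higher and 2 lower, among them MSTRG.6928, MSTRG.8306 and MSTRG.11800, with adjusted p between 0.0124 and 0.0467.

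When sh-Ptbp1-7d was compared with sh-Ptbp1-3d, 128 of the 950 short loci (13.5%) were called at more than 2-fold and an adjusted p below 0.01, against 14.2% of all entries tested, a share near the background. Of the 128, 75 were higher at day 7 and 53 lower, where 8.31% and 5.9% of all entries were. The split depended on the scaling of the libraries, and after quantile normalization it was 47 higher and 73 lower. Libraries of the 2 groups did not overlap at 349 loci (36.7%), against 62.3% of all entries. The larger loci were called in 15.5% and gene symbols in 14.2%.

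**Figure D2:**
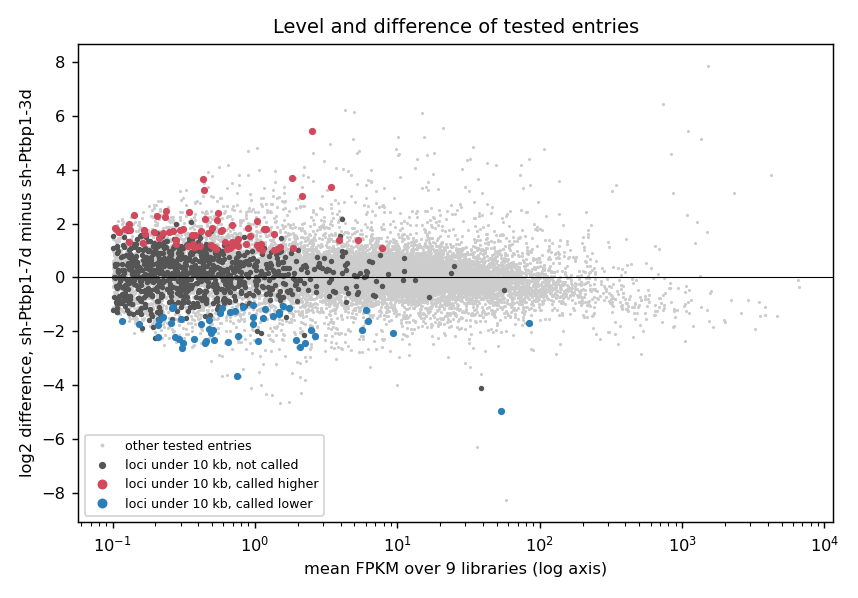
Mean FPKM over 9 libraries (log axis) and log2 difference of sh-Ptbp1-7d from sh-Ptbp1-3d for each of the 15551 tested entries. Grey points are other entries, dark points are short loci without a call, red points the 75 called higher and blue points the 53 called lower; most short loci lie under 1 FPKM.

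By position class 77 of 519 tested loci that share an exon were called (14.8%, 45 higher and 32 lower). The calls were 39 of 300 for intergenic loci (13.0%, 23 and 16) and 9 of 92 for loci opposite a gene (9.78%, 5 and 4). Loci that overlap a gene of their strand without a shared exonic base had 3 of 39 (7.69%, 2 and 1). Loci on a pseudogene were called in 31 of 178 cases (21 higher and 10 lower) and those on a long noncoding RNA in 39 of 309 (20 and 19). Loci without any annotated intron were called in 13.0% and loci with all introns annotated in 12.4%. By span the share was 7.92% for loci under 1 kb, whose median level was 0.129 FPKM, and 16.0% for loci of 5 to 10 kb, whose median was 0.305 FPKM. These shares were not tested against each other.

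Among these calls 38 loci averaged 1 FPKM or more and had groups that did not overlap, 19 in each direction. The largest rise was MSTRG.23249 at chr6:31463126-31470112, which carries HCP5, a long noncoding RNA of the class I region of the major histocompatibility complex, and has 37.6% of its exonic bases in annotated exons of that gene. It was at 0.0574, 0.0257 and 0.0364 FPKM in sh-Luci-3d, 0.0779, 0.0854 and 0.0566 in sh-Ptbp1-3d, and 7.40, 7.30 and 7.48 in sh-Ptbp1-7d. The log2 difference from sh-Ptbp1-3d was 5.44 (standard error 0.206, limma adjusted p = 1.79e-08). The day 7 libraries stood far from the other 6, which were all under 0.1 FPKM. MICB, the nearest tested gene, which encodes a stress ligand of natural killer cells, was 0.625, 0.82 and 0.725 FPKM in sh-Ptbp1-3d and 0.933, 0.955 and 0.863 in sh-Ptbp1-7d, and did not pass (limma adjusted p = 0.236).

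MSTRG.5219 carries CARD16, a protein made of a caspase recruitment domain, at chr11:105040350-105045344, with both introns annotated. It was at 0.40, 0.372 and 0.552 FPKM in sh-Luci-3d, 0.0891, 0.30 and 0.572 in sh-Ptbp1-3d, and 4.58, 4.97 and 4.65 in sh-Ptbp1-7d, a log2 difference of 3.71 from sh-Ptbp1-3d (standard error 0.372, limma adjusted p = 1.53e-05). CASP1, the inflammatory caspase 5100 bases away on the same strand, measured 1.03, 0.703 and 1.05 FPKM in sh-Ptbp1-3d and 26.2, 28.7 and 27.5 in sh-Ptbp1-7d, a log2 difference of 4.76. CARD16 and CASP1 are closely related in sequence, so reads could be divided between them.

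MSTRG.1887 is intergenic, at chr1:154671005-154679849, with 3 exons and no annotated intron. It was at 0.714, 0.975 and 0.821 FPKM in sh-Luci-3d, 0.66, 0.771 and 0.826 in sh-Ptbp1-3d, and 8.32, 8.70 and 8.98 in sh-Ptbp1-7d, a log2 difference of 3.37 from sh-Ptbp1-3d (standard error 0.151, limma adjusted p = 4.91e-08). The day 3 groups overlapped. KCNN3, a potassium channel gene and the nearest annotated gene at 17606 bases, was at most 0.0145 FPKM in any library. ADAR, the nearest tested gene at 42992 bases, had a log2 difference of 0.71, under the 2-fold limit. MSTRG.1888, assembled over the same bases on the other strand, was at most 0.0917 FPKM at day 3 and 0.327, 0.197 and 0.259 at day 7, and its reads cannot be told apart from those of MSTRG.1887 without strand.

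MSTRG.22854 is also intergenic, 709 bases from MIR4645 at chr6:2850972-2853322. It was at 0.663, 0.658 and 0.659 FPKM in sh-Luci-3d, 0.54, 0.465 and 0.648 in sh-Ptbp1-3d, and 5.45, 5.04 and 5.14 in sh-Ptbp1-7d, a log2 difference of 3.04 from sh-Ptbp1-3d (limma adjusted p = 1.22e-07). MSTRG.22855, assembled on the other strand, overlaps it by 2108 bases, and without strand their reads cannot be told apart. MSTRG.13064, on the strand opposite RAB11B-AS1, a noncoding RNA beside the recycling GTPase gene RAB11B, was 0.513, 0.284 and 0.521 FPKM in sh-Ptbp1-3d and 2.36, 1.96 and 2.18 in sh-Ptbp1-7d, a log2 difference of 2.10 (limma adjusted p = 2.69e-05). For MSTRG.22854 and MSTRG.13064, every day 7 library exceeded every other library.

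MSTRG.25705 begins within the CYREN promoter window printed above and lies 20 bases from that gene as GENCODE gives it, while the start in the RefSeq table lies 108 bases away and the RefSeq span of the gene overlaps the locus. It was at 0.408, 0.599 and 0.851 FPKM in sh-Luci-3d, 0.63, 0.57 and 0.61 in sh-Ptbp1-3d, and 2.03, 2.76 and 2.33 in sh-Ptbp1-7d, a log2 difference of 1.80 from sh-Ptbp1-3d (standard error 0.233, limma adjusted p = 9.52e-05). CYREN itself measured 21.8, 21.1 and 18.2 FPKM in sh-Ptbp1-3d and 26.5, 23.9 and 21.4 in sh-Ptbp1-7d, groups that overlapped, with a log2 difference of 0.23 (limma adjusted p = 0.0771). The difference between the locus and the gene was not tested.

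The other 2 named rises were smaller. MSTRG.84 on the long noncoding RNA AL391244.3 measured 0.79, 0.668 and 0.339 FPKM in sh-Ptbp1-3d and 1.98, 2.33 and 2.33 in sh-Ptbp1-7d, a log2 difference of 1.79 (limma adjusted p = 0.000426). MSTRG.23454 on ADCY10P1, a pseudogene of the soluble adenylyl cyclase gene, measured 0.959, 0.803 and 0.597 FPKM in sh-Ptbp1-3d and 2.43, 2.04 and 3.47 in sh-Ptbp1-7d, a log2 difference of 1.62 (limma adjusted p = 0.000239). Neither overlapped between the groups, and in both the values of sh-Luci-3d lay within 0.497 to 0.881 FPKM.

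The largest fall on the log2 scale was MSTRG.21151 at chr4:182814550-182824492. It was at 97.6, 98.6 and 67.5 FPKM in sh-Luci-3d, 72.5, 72.0 and 69.4 in sh-Ptbp1-3d, and 2.42, 2.08 and 2.16 in sh-Ptbp1-7d. The log2 difference from sh-Ptbp1-3d was -4.95 (standard error 0.134, limma adjusted p = 1.89e-09), with the day 3 groups overlapping each other and the day 7 libraries far below both. The locus starts 11526 bases downstream of TENM3 on the same strand and has 3 transcripts of up to 3 exons, none with an annotated intron. TENM3, a teneurin of neuronal wiring, measured 19.9, 20.9 and 19.9 FPKM in sh-Ptbp1-3d and 21.7, 20.9 and 14.8 in sh-Ptbp1-7d, and its log2 difference was -0.10 (limma adjusted p = 0.555).

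DANCR, a noncoding RNA known for opposing cell differentiation and carried by MSTRG.20380 at chr4:52712378-52721401, was at 13.0, 9.95 and 11.4 FPKM in sh-Luci-3d, 13.4, 13.2 and 13.1 in sh-Ptbp1-3d, and 3.27, 3.08 and 3.03 in sh-Ptbp1-7d. Its log2 difference from sh-Ptbp1-3d was -2.05 (standard error 0.107, limma adjusted p = 1.4e-07). Of its 6 assembled introns 3 were annotated. TMEM191A, a transcribed pseudogene carried by MSTRG.17751 with 7 of 8 introns annotated, was at 6.24, 6.23 and 7.53 FPKM, then 7.88, 8.88 and 8.14, then 2.13, 1.57 and 2.59 in the 3 groups in the same order. Its log2 difference from sh-Ptbp1-3d was -1.96 (limma adjusted p = 4.25e-06). For both, the day 7 libraries lay below every day 3 library.

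CASC10 and LINC01615 were about as large in fold. MSTRG.3109 covers CASC10, protein coding in GENCODE and named MIR1915HG in RefSeq as the host of a microRNA, and measured 3.68, 3.71 and 3.91 FPKM in sh-Ptbp1-3d and 0.784, 0.781 and 0.683 in sh-Ptbp1-7d, a log2 difference of -2.19 (limma adjusted p = 2.96e-07). MSTRG.24355, whose LINC01615 promoter is printed above, measured 2.84, 2.15 and 2.81 FPKM in sh-Ptbp1-3d and 0.598, 0.505 and 0.254 in sh-Ptbp1-7d, a log2 difference of -2.34 (limma adjusted p = 1.81e-05). No day 7 library of either reached a day 3 library.

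The remaining named falls started from 1.41 to 4.58 FPKM in sh-Ptbp1-3d. MSTRG.368 on AL590644.1, 6783 bases from the peptidylarginine deiminase gene PADI1, measured 3.14, 3.51 and 2.43 FPKM in sh-Ptbp1-3d and 0.608, 0.464 and 0.233 in sh-Ptbp1-7d, a log2 difference of -2.60 (limma adjusted p = 1.29e-05). MSTRG.17576, an intergenic locus 32540 bases from the collagen gene COL18A1, measured 1.41, 1.55 and 1.71 FPKM in sh-Ptbp1-3d and 0.247, 0.267 and 0.162 in sh-Ptbp1-7d, a log2 difference of -2.36 (limma adjusted p = 4.29e-06). MSTRG.17255, in the ribosomal DNA array of chromosome 21, measured 4.58, 2.89 and 1.68 FPKM in sh-Ptbp1-3d and 0.46, 0.364 and 0.524 in sh-Ptbp1-7d, a log2 difference of -2.42 (limma adjusted p = 9.43e-05), with a wide spread at day 3 and with copies that share reads.

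The 22 other loci that met these conditions changed less. The 11 rises had log2 differences from 1.01 to 1.38 and the 11 falls from -1.94 to -1.05. Among the rises, MSTRG.9758, MSTRG.9760 and MSTRG.9763 lie on AC138969.1 and MSTRG.9776 on PKD1P5, a pseudogene of the polycystin gene PKD1 on chromosome 16, where duplicated segments share reads. Their means were 5.56, 3.36, 0.717 and 2.53 FPKM in sh-Ptbp1-3d and 11.8, 8.84, 1.85 and 6.81 FPKM in sh-Ptbp1-7d. Among the falls, MSTRG.17052 and MSTRG.3124 run opposite RPL12P4 and YWHAZP3, and MSTRG.2704 lies on FTH1P2, which are pseudogenes of abundantly expressed genes for a ribosomal protein, a 14-3-3 protein and ferritin. Their means were 4.11, 2.23 and 8.38 FPKM in sh-Ptbp1-3d and 1, 0.81 and 2.73 FPKM in sh-Ptbp1-7d. These 7 were chosen after their values were seen, and since copies of such sequences may share reads their values are uncertain.

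By chromosome, 12 of 44 tested loci on chromosome 6 were called, 10 of them higher, and 7 of 28 on chromosome 21, all lower, where 14.2% of all entries were called, 8.31% higher and 5.9% lower. Chromosome 1 had 14 of 105, with 6 higher and 8 lower. The chromosomes named here were chosen after these counts were seen.

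**Figure D3:**
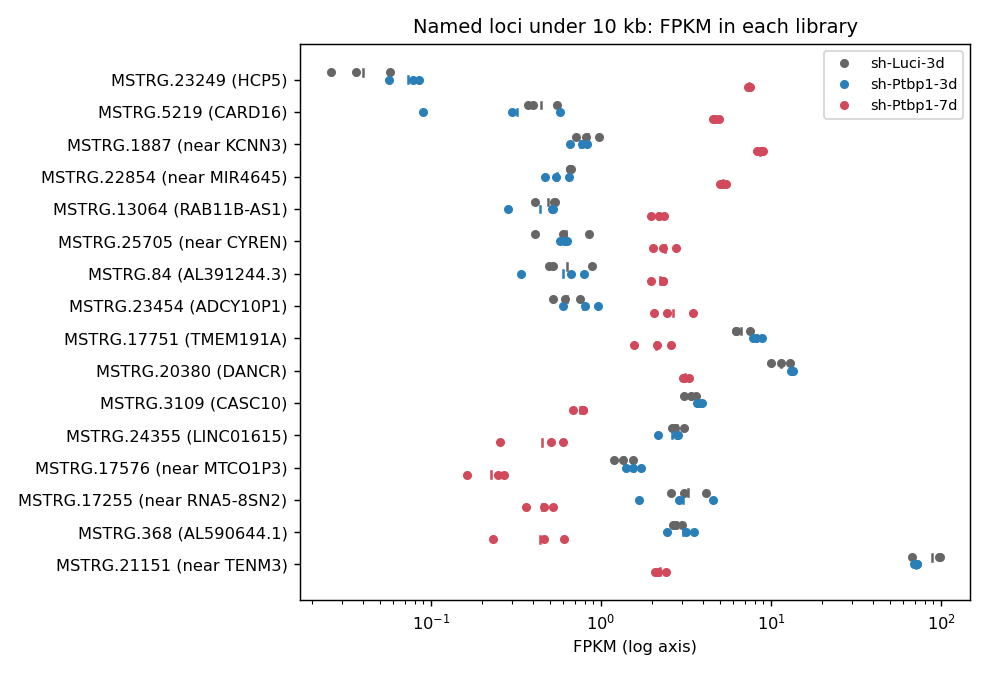
FPKM (log axis) of the 8 named rises and 8 named falls in each library, 1 point per library and a short vertical line at the group mean, with grey for sh-Luci-3d, blue for sh-Ptbp1-3d and red for sh-Ptbp1-7d. In every row the 3 red points lie outside the range of the 6 day 3 points.

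The comparison of sh-Ptbp1-7d with sh-Luci-3d shares its day 7 libraries with the one before, so the 2 are not independent. It called 128 short loci (13.5%), 77 higher and 51 lower, against 14.6% of all entries tested (8.93% higher and 5.68% lower). After quantile normalization the split was 49 higher and 63 lower. The groups did not overlap at 342 loci (36%), against 55.9%. The 4 largest rises with a mean of at least 1 FPKM were MSTRG.23249, MSTRG.1887, MSTRG.5219 and MSTRG.22854, with log2 differences of 5.75, 3.24, 3.17 and 2.80. The 4 largest falls were MSTRG.21151, MSTRG.17255, MSTRG.368 and MSTRG.24355, with -5.23, -2.60, -2.49 and -2.45. Their limma adjusted p ran from 1.37e-09 to 5.56e-05. In these bulk libraries a change in RNA per cell and a change in which cells are present cannot be told apart.

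Loci were next set beside the gene closest to them. For 745 tested loci a tested gene lay within 50 kb, 649 genes in all. Of the 62 with a locus called higher at day 7 than in sh-Ptbp1-3d, the gene was also higher in 17 (27.4%), while 8.99% of the genes over all pairs were higher. Of the 38 with a locus called lower, the gene was also lower in 9 (23.7%), against 7.25% over all pairs, and 4 pairs moved in opposite directions. Across the 745 loci Pearson's r between the log2 differences was 0.32, a description of pairs that share libraries and, where they overlap or lie end to end, reads. In 192 pairs a tested gene of the opposite strand started within 1 kb of the locus's 5′ end, on either side of it. Of these, 14 loci were called higher and 10 lower, with 3 pairs higher together, 2 lower together and 1 opposite. Over all these pairs 7.29% of the genes were higher and 9.38% lower. Here r was 0.41.

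The pairs in this paragraph and the next were chosen after their values were seen, and several lie under 1 FPKM. MSTRG.13366 lies 562 bases upstream of PLVAP, a protein of endothelial diaphragms, and was listed at 0 in 4 of the 6 day 3 libraries and at 0.838, 1.41 and 1.46 FPKM at day 7. PLVAP measured 0, 0.237 and 0.116 FPKM in sh-Ptbp1-3d and 2.43, 2.81 and 3.81 in sh-Ptbp1-7d. MSTRG.9038, 1488 bases downstream of PML, the organizer of nuclear bodies, measured 0.0857, 0.291 and 0.0544 FPKM in sh-Ptbp1-3d and 1.51, 0.668 and 0.733 in sh-Ptbp1-7d, and PML went from 29.3, 30.6 and 31.1 to 67.4, 63.7 and 63.5 FPKM. Their log2 differences were 3.25 and 3.98 for the first pair and 2.17 and 1.09 for the second, with limma adjusted p at or below 0.00432. Over the alternatives MSTRG.9038 ran from 0.76 to 2.89 (limma adjusted p from 0.00146 to 0.0252), which ends its call in some. MSTRG.23127, whose 3′ end lies 154 bases from the 3′ end of the zinc finger gene ZNF391 on the opposite strand, differed by 2.45 and ZNF391 by 2.03.

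Among loci that fell, MSTRG.23866 begins 202 bases from POPDC3, a Popeye domain gene of the opposite strand. It measured 0.68, 0.587 and 0.84 FPKM in sh-Ptbp1-3d and 0, 0.291 and 0 in sh-Ptbp1-7d, and POPDC3 went from 26.5, 24.4 and 20.5 to 7.19, 7.13 and 6.90 FPKM. MSTRG.4984, 8030 bases from the lysosomal channel gene TPCN2, measured 1.51, 1.01 and 1.03 FPKM in sh-Ptbp1-3d and is listed at 0 in all 3 libraries of sh-Ptbp1-7d, while TPCN2 went from 7.75, 8.16 and 7.04 to 3.42, 2.70 and 2.86 FPKM. PADI1 and COL18A1, beside the named falls MSTRG.368 and MSTRG.17576, fell by 2.15 and 2.19 on the log2 scale. P4HB, a protein disulfide isomerase gene, moved against its neighbour, with 1.18 for the gene and -1.49 for MSTRG.12199, which lies 199 bases away on the other strand.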

How the data were processed

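RNA-seq of 9 libraries, 3 in each group of the labels, was analysed from deposited files. The authors filtered the reads and aligned them; the submitters' processing notes name HISAT2 and GRCh38. The authors deposited FPKM values per entry and library, and an annotation of the assembled loci whose source column names StringTie. The program that computed FPKM, the strandedness of the libraries and the read depth are not given in the sources used here.

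Loci with a span under 10 kb were taken from the deposited annotation and placed on GENCODE release 29 (GRCh38), and promoter windows came from RefSeq GRCh38.p14. All 9 libraries entered limma 3.58.1 (R 4.3.3) on log2(FPKM + 0.1) with a variance trend, for the 15551 entries with a mean of at least 0.1 FPKM, with Benjamini-Hochberg adjustment over all of them. A call needed more than 2-fold and FDR below 0.05 in the day 3 comparison, or below 0.01 in both comparisons with sh-Ptbp1-7d. On simulated data of the comparison between days 7 and 3 of sh-Ptbp1 over 15551 entries, 193 of 200 entries changed by 2 on the log2 scale were recovered (96.5%) with 1 false call. The changed entries were drawn only from those whose mean log2(FPKM + 0.1) was positive, with normally distributed noise. The recovery therefore does not describe the lower levels at which most short loci lie (median 0.265 FPKM).

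Named loci were past both thresholds, had a mean of at least 1 FPKM and did not overlap between groups, the 8 largest rises and falls (4 each against sh-Luci-3d); further, the 5 lowest adjusted p at day 3, the 6 highest means and 3 loci on each side of 10 kb. Members, lists and rules were chosen with earlier results of these data known. Same-numbered libraries did not deviate together (correlations in the closing section), so no block was used. Alternatives were pseudocounts of 1 and 0.01, other filters, scalings, thresholds and samples.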

Additional observations from a re-analysis of the deposited data

How the results depend on the processing

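With a pseudocount of 1 the loci called were 25 when sh-Ptbp1-7d was set against sh-Ptbp1-3d and 24 against sh-Luci-3d, and with a mean of at least 1 FPKM they were 39 and 37, where fewer loci were tested (195). An FDR of 0.05 gave 193 against sh-Luci-3d. Leaving out each library in turn gave 97 to 125, 97 to 127 and, at day 3, 0 to 9 loci, the 9 only without sh-Luci-3d replicate 3. All other alternatives left the counts within 1.5 times. Rescaling every library to the same sum moved the median log2 difference of all entries from 0.09 to 0.195 and quantile normalization to -0.01, where the short loci had medians of 0.27 and -0.03. With the replicate number as a block the counts were 0 at day 3, 113 between the sh-Ptbp1 groups and 123 for the comparison of day 7 with sh-Luci-3d; the numbers do not pair the samples, since libraries of the same number correlated between -0.0317 and 0.0512.

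Counted at 50% of exonic bases in place of 1 base, 416 loci shared an exon. Another 270 overlapped a gene of their strand with a smaller exonic share or none. With strand ignored, 719 shared at least 1 exonic base and 105 overlapped a gene without doing so. Within 100 bases the hexamer share was 14.8%. For the named loci, each counted in the comparisons that named it (those named by level or span between the sh-Ptbp1 groups), 717 values stayed on their side of the threshold in the same direction, 5 passed, 8 no longer passed and 1 reversed: MSTRG.10815 between the sh-Ptbp1 groups, -0.33 with all libraries, -0.59 to 0.04 with each left out, the 0.04 without sh-Ptbp1-7d replicate 1. All 8 concern MSTRG.9208, just above the span limit. Loci chosen after their values were seen, and the other comparisons of the named loci, are not in these counts; of the former, MSTRG.9038, MSTRG.21184, MSTRG.6127, MSTRG.23866, MSTRG.23127, MSTRG.8881, MSTRG.1888, MSTRG.23293 and MSTRG.23242 came within 2-fold under at least 1 alternative, which ends the call, with no change of sign. The share of GT and AG over all introns, the pyrimidine share before the 3′ splice site, and GC and repeat content were not run, as no genome sequence was used here; the cause of each shift was not tested.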

Other observations

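A pair of regions was looked at after their values were seen. On chromosome 6 between 29 and 33 Mb, the major histocompatibility complex, 11 short loci were assembled and 8 tested, of which 4 were called higher at day 7 than in sh-Ptbp1-3d and 0 lower, where 8.31% and 5.9% of all entries were. Besides HCP5 these were MSTRG.23242 on HCG27, a noncoding RNA of the class I region, at 0.50, 0.599 and 0.661 FPKM in sh-Ptbp1-3d and 1.56, 1.25 and 1.74 in sh-Ptbp1-7d, and MSTRG.23293 and MSTRG.23295, both on TNXA, a partial copy of the tenascin gene TNXB. MSTRG.23293 measured 0, 0.123 and 0 FPKM in sh-Ptbp1-3d and 0.492, 0.614 and 0.487 in sh-Ptbp1-7d. C4B, a complement gene with a nearly identical copy and the nearest tested gene at 5356 and 2589 bases, went from 1.10, 1.41 and 1.58 to 11.2, 10.7 and 8.02 FPKM. Reads of these copies may be shared, and their values are uncertain.

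On chromosome 21 between 8 and 9 Mb, 5 short loci were tested, of which 2 were called lower (5.9% of all entries) and 0 higher (8.31%), with log2 differences from -4.10 to 0.57.

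Loci listed at 0 in all 6 day 3 libraries and above 0 in all 3 of day 7 numbered 4 of 1231 (0.325%), against 0.233% of all entries; the highest, MSTRG.8881 on the pseudogene AC126323.1, was at 0.442, 0.605 and 0.219 FPKM at day 7. The reverse held for 5 (0.406%), against 0.179%, and MSTRG.4984 was the highest of them. MSTRG.6127 on HOXC-AS3, an antisense transcript of the HOXC cluster, was at 0.193, 0 and 0.514 FPKM in sh-Luci-3d, 0.696, 0.804 and 0.865 in sh-Ptbp1-3d, and 0.15, 0 and 0.134 in sh-Ptbp1-7d, and was called lower at day 7 than in sh-Ptbp1-3d (limma adjusted p = 0.00768). MSTRG.25583, opposite POT1-AS1, was at most 0.0234 FPKM at day 3 and 1.41, 1.23 and 1.20 at day 7. MSTRG.21184 on AC099343.3 begins 999 bases from IRF2, an interferon regulatory factor gene; the locus differed by 2.46 and the gene by 0.74 on the log2 scale between the sh-Ptbp1 groups.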
